A study of Mus musculus with 4 samples.

Results

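The branched-chain amino acid genes are 10 of the 22865 gene symbols counted in lung γδ T cells of mice that lacked Aire or carried it. They were chosen by name. They are the aminotransferases Bcat1 and Bcat2, the dehydrogenase subunits Bckdha, Bckdhb, Dbt and Dld, the kinase Bckdk, and the transporter chains Slc7a5, Slc3a2 and Slc43a1. Bcat1 drew attention to the set because it was among the genes with the largest genotype difference in these same libraries. The difference between genotypes is therefore given for these genes as a description, and no test of it is used as support.

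The libraries came from Aire-/- and Aire+/+ mice, both on C57Bl/6, female and 10 weeks old, with 2 libraries per genotype. Each was made from 500 lung cells sorted as viable, CD45+, TCRγδ+, TCRβ-, CD27- and negative for 4 Vγ chains, by Smart-Seq2, which amplifies full-length cDNA from very few cells. The labels name no separate animals, so the spread between the libraries of a genotype may be technical. Aire lets thymic medullary epithelial cells display proteins of other tissues to developing T cells. It had 0 counts in all 4 libraries, so it does not check the genotype labels.

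Leucine, isoleucine and valine enter lymphocytes through heterodimeric exchangers such as the Slc7a5 and Slc3a2 pair. Inside the cell, Bcat1 in the cytosol or Bcat2 in mitochondria moves their amino group to 2-oxoglutarate, which gives glutamate and a branched-chain keto acid. The mitochondrial branched-chain keto acid dehydrogenase then commits the carbon skeleton to oxidation, and Bckdk switches this complex off by phosphorylating it. In mouse CD4+ T cells, Bcat1 is known as an enzyme induced by activation that limits the leucine supply to mTORC1.

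Total counts ran from 1106891 to 1144060 in Aire-/- and from 1153344 to 1265239 in Aire+/+ libraries. The ribosomal RNA precursor Rn45s took 19.4% to 20.4% of counts in Aire-/- and 16.2% to 17.4% in Aire+/+ libraries. The γδ T17 markers Il17a, Il23r, Sox13 and Cd163l1 were present in every library, with summed levels of 4584 and 5086 CPM in Aire-/-, against 2989 and 4237 CPM in Aire+/+ libraries. CPM is a gene's count scaled to a common library size, with edgeR's TMM factors. All 6 B cell markers were also present, although the gate should exclude B cells, at 2216 and 1595 CPM in Aire-/-, against 3282 and 2062 CPM in Aire+/+ libraries. The source cell of a transcript is thus not known in these bulk libraries. Fewer cells of a type and less RNA per cell cannot be told apart in them.

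The genes of the aminotransferase pair are shown first by the sequence at their starts, because the count table sums reads from all starts of a gene. RefSeq (GRCm38.p6) lists a pair of starts for Bcat1, on chromosome 6 at 145076157 and 145048812 on the minus strand. Each window below holds 250 bases before and 50 bases after a start, 5′ to 3′ on the gene's strand. Capitals mark matches to CCAAT or TATAAA on either strand, and no matches overlapped. The first window is chr6:145076108-145076407, the second chr6:145048763-145049062, and that of the first Bcat2 start chr7:45569903-45570202 on the plus strand. RefSeq lists a further Bcat2 start at 45571279, whose window is not printed.
Bcat1 outer start: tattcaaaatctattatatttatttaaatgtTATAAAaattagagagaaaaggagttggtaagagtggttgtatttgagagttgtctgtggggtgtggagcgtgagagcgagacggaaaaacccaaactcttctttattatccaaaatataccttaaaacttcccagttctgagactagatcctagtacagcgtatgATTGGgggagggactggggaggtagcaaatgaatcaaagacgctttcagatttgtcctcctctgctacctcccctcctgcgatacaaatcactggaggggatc
Bcat1 inner start: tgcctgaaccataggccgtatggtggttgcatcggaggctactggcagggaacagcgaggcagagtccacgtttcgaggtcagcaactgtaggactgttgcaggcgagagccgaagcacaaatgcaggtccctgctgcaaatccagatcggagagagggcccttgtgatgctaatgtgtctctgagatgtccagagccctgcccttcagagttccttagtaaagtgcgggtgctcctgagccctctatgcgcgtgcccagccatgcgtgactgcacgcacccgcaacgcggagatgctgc
Bcat2 first start: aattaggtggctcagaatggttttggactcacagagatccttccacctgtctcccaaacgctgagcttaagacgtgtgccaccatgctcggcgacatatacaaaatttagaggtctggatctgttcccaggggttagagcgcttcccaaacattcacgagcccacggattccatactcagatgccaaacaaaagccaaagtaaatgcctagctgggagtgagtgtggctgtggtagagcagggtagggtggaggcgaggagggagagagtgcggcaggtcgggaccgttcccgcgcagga

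The outer Bcat1 window held 1 CCAAT match (written ATTGG, its first base at -53) and 1 TATAAA match (at -219), where the first transcribed base is 1. CCAAT occurred in 37.4% and TATAAA in 13.6% of 32851 promoter windows of this length. The inner Bcat1 window and both Bcat2 windows held neither of these, nor GGGCGG (35.7% of windows) or CACGTG, the E-box of MYC (7.15%), all searched on both strands. The base composition differed between the Bcat1 starts, with 41.0% G+C and 6 CpG in the outer and 58.7% G+C and 16 CpG in the inner window, against 54.0% and 13 at the first and 50.3% and 9 at the second Bcat2 start. Promoter windows were found for 8 of the 10 genes, and of those windows CACGTG stood only in that of Slc43a1, at -64. On GRCm38, GENCODE places Bcat1 (ENSMUSG00000030268) on the minus strand of chromosome 6, at 144993835 to 145076184, and Bcat2 (ENSMUSG00000030826) on the plus strand of chromosome 7, at 45570153 to 45589711. The inner Bcat1 start lies within Gm26666, an antisense gene on the opposite strand, and a further antisense gene, Gm15687, also overlaps Bcat1. Neither antisense gene has a row in the count table used here, and reads from the opposite strand cannot be told apart without strand. The counts give no separate value for either Bcat1 start.

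Bcat1, the cytosolic aminotransferase, was near the detection limit in Aire-/- libraries and readily counted in Aire+/+ libraries. It was counted 2 and 6 times in Aire-/-, against 75 and 37 times in Aire+/+ libraries. In scaled values this was 1.83 and 5.66 CPM in Aire-/-, against 60.6 and 31.7 CPM in Aire+/+ libraries, so the genotypes did not overlap. A count of 3, the limit that a count of 0 would allow, equals 2.74 and 2.83 CPM in the Aire-/- libraries. The mean was 3.74 ± 2.71 CPM in Aire-/-, against 46.1 ± 20.5 CPM in Aire+/+ libraries (SD, n = 2 each), a fitted log2 fold change of -3.60 (approximate SE 0.59). The summed scaled counts gave an Aire-/- to Aire+/+ ratio of 0.0797, with 0.0336 to 0.163 as the 95% exact interval of counting error. Bcat1 passed the filter on low counts only through the Aire+/+ libraries. Its fold change was the third lowest of 9783 genes tested, and moved to -3.00 without Aire-/- replicate 1 and to -4.59 without Aire-/- replicate 2.

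Bcat2, the mitochondrial aminotransferase that carries out the same reaction, stood at nearly the same level in both genotypes. Its counts were 45 and 45 in Aire-/-, against 61 and 38 in Aire+/+ libraries, or 41.8 ± 0.941 (Aire-/-) against 40.9 ± 11.9 CPM (Aire+/+; SD, n = 2 each). The Aire-/- values lay between the Aire+/+ values, and the fitted log2 fold change was 0.03 (approximate SE 0.34). The interval of the summed ratio, 0.754 to 1.36, covers counting error only. The antisense gene that overlaps the Bcat2 start, 0610005C13Rik, had 0 or 1 count per library.

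The balance of the pair within a library does not depend on library scaling. Per kilobase of longest transcript, Bcat1 made up 1.17% (95% exact interval 0.139 to 4.32) and 3.42% (1.22 to 7.69) of the Bcat1 plus Bcat2 signal in Aire-/- libraries. In Aire+/+ libraries it made up 24.6% (18.7 to 31.8) and 20.6% (13.8 to 29.5). The intervals of the Aire-/- libraries did not reach those of the Aire+/+ libraries, although they cover counting error only. Bcat1 was noticed for its genotype difference in these same libraries, so this gap describes that difference and is no support for it. An exact permutation test of 2 against 2 libraries cannot go below p = 0.333, so none was made. The longest Bcat1 transcript in GENCODE has 7833 bases and that of Bcat2 has 2081. Without length correction the shares were 4.26% and 11.8% in Aire-/- and 55.1% and 49.3% in Aire+/+ libraries.

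**Figure D1:**
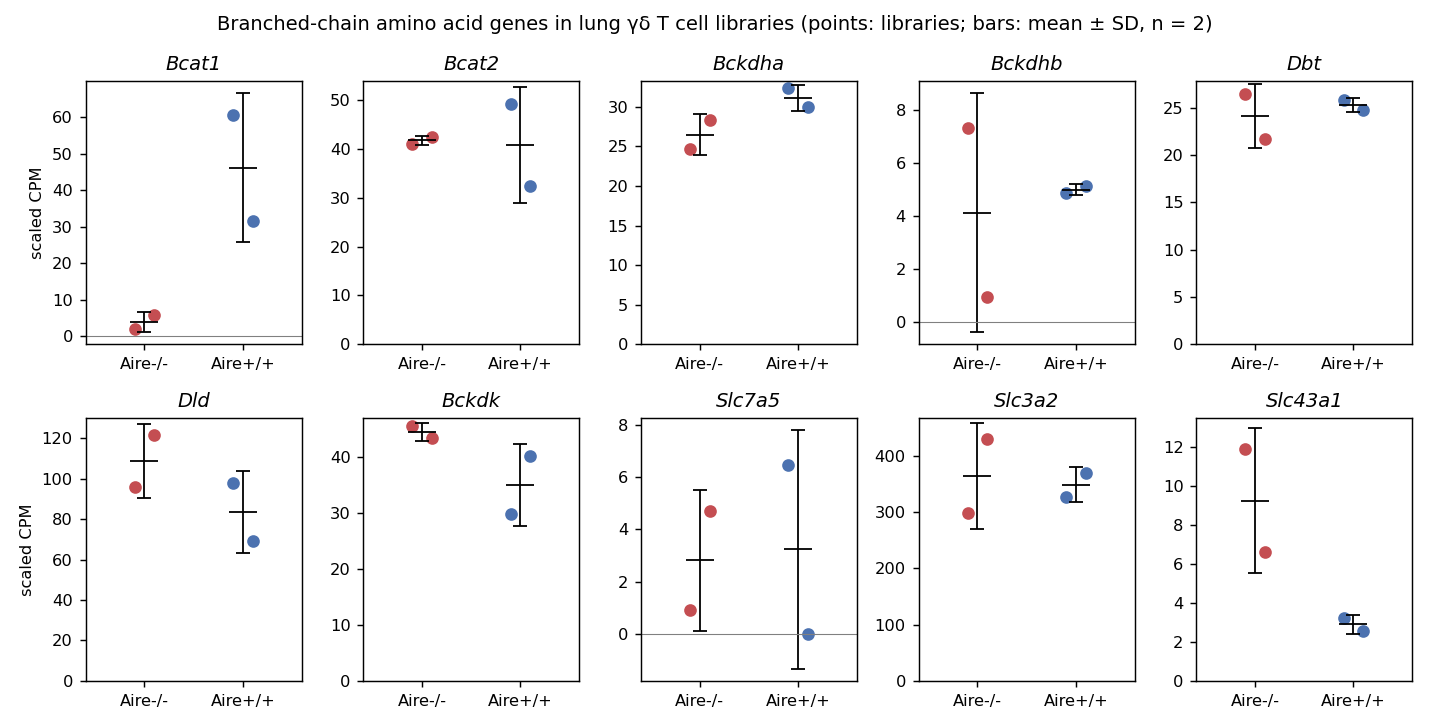
Scaled CPM (vertical axes, each panel with its own scale) of the 10 genes in 2 Aire-/- and 2 Aire+/+ libraries. Points are libraries, and bars are mean ± SD (n = 2). Bcat1 is at 1.83 and 5.66 CPM in Aire-/- and at 60.6 and 31.7 CPM in Aire+/+ libraries, while Bcat2, Dbt, Dld, Slc3a2, Bckdhb and Slc7a5 overlap between genotypes.

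Igj, a plasma cell marker, differed between the libraries in the same order as Bcat1. This joining chain of polymeric antibodies, now named Jchain, had counts of 0 and 4 in Aire-/-, against 1674 and 827 in Aire+/+ libraries. In the Aire+/+ pair, replicate 1 held 2.03 times the Bcat1 counts and 2.02 times the Igj counts of replicate 2, so that there were 4.48 and 4.47 Bcat1 counts per 100 Igj counts. Of the B cell genes set beside them, Ms4a1 differed between those libraries by 2.00 times and Cd79a by 1.51 times, and the T cell gene Cd3g differed by 0.688 times. These ratios rest on 2 libraries and on unscaled counts. Of the other plasma cell markers, Mzb1 had 141 and 88 and Xbp1 73 and 25 counts in Aire+/+ replicates 1 and 2. Sdc1 (197 and 303), Prdm1 (31 and 63) and Tnfrsf17 (0 and 2) had fewer in replicate 1. In Aire-/- libraries Bcat1 had 2 and 6 counts beside 0 and 4 of Igj, so the proportion did not hold there.

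Of the 6 plasma cell markers, Igj and Mzb1 lay lower in both Aire-/- libraries, Tnfrsf17 had 0 to 2 counts per library, and Sdc1, Prdm1 and Xbp1 overlapped between genotypes. Their summed level was 330 and 438 CPM in Aire-/-, against 1710 and 1119 CPM in Aire+/+ libraries. Igj made up most of this gap. Without it, the sum of the other 5 overlapped, at 330 and 434 CPM in Aire-/-, against 357 and 412 CPM in Aire+/+ libraries. Sdc1 was the largest part of that sum, at 206 and 304 CPM in Aire-/-, against 159 and 259 CPM in Aire+/+ libraries. Mzb1 was at 54.8 and 40.5 CPM in Aire-/-, against 114 and 75.3 CPM in Aire+/+ libraries. Over all genes tested, 17.3% had both Aire-/- values below both Aire+/+ values, the share to set beside the counts of lower marker genes here. Among 7 macrophage and monocyte genes, 2 lay lower in both Aire-/- libraries and Cd14 was at 0 counts there. Their sum overlapped, at 21.9 and 78.3 CPM in Aire-/-, against 206 and 36.8 CPM in Aire+/+ libraries. All 3 mast cell and basophil genes were lower in Aire-/- libraries, at summed levels of 1.83 and 2.83 CPM against 10.5 and 8.56 CPM in Aire+/+ libraries. These sums rest on 2 and 3 counts in Aire-/-, against 13 and 10 in Aire+/+ libraries. Fcer1a had 0 counts in both Aire-/- libraries, against 4 and 3 in Aire+/+ libraries. No gene of this list had more than 6 counts in a library, too few for the filter, so the share of genes tested does not cover them. Of 6 B cell genes, 2 lay lower in both Aire-/- libraries. Both endothelial genes did so too, with a sum of 113 and 105 CPM in Aire-/-, against 140 and 130 CPM in Aire+/+ libraries. Nearly all of that sum was Pecam1, since Cdh5 had 0 and 1 counts in Aire-/-, against 2 and 6 in Aire+/+ libraries. The sum of 5 dendritic cell genes lay the other way, at 63.0 and 41.5 CPM in Aire-/-, against 21.0 and 33.4 CPM in Aire+/+ libraries. Of these 5 genes, 4 lay higher in both Aire-/- libraries, and so did all 4 γδ T17 genes. Over all genes tested, 17.1% lay higher in this way. Apart from Xcr1, no dendritic cell gene had more than 9 counts in a library. The part of any of these cells in the Bcat1 difference was not tested.

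**Figure D2:**
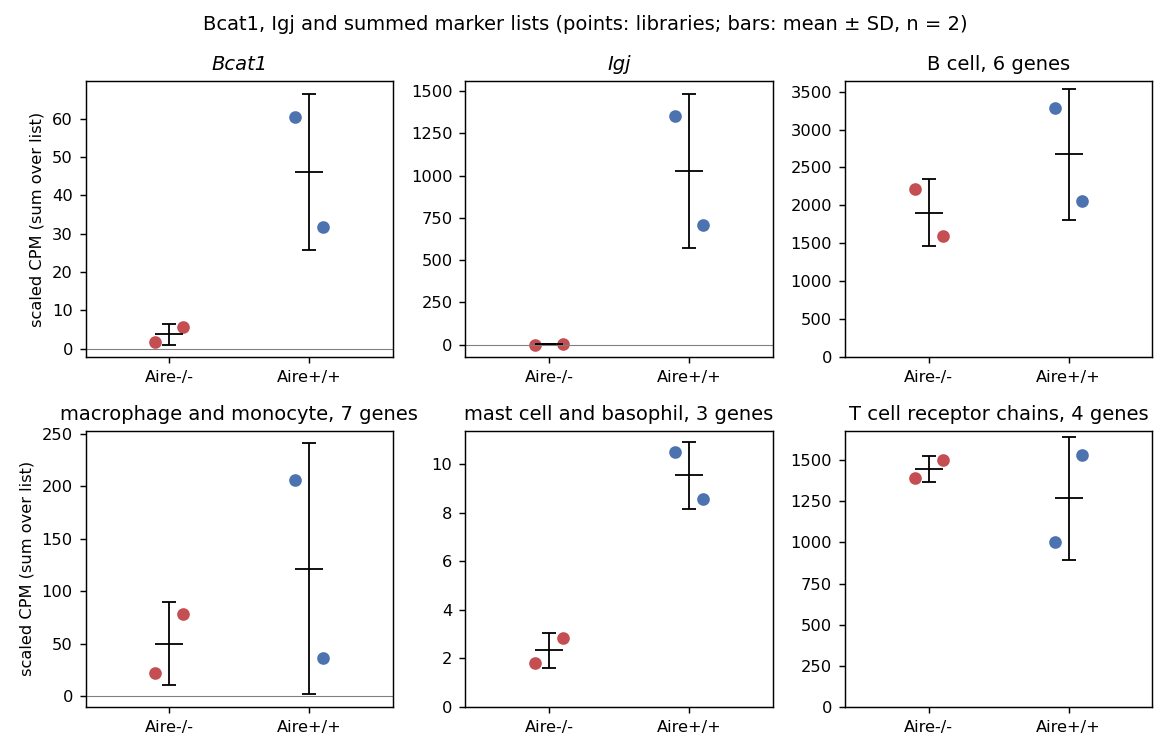
Scaled CPM of Bcat1, Igj and 4 summed marker lists (vertical axes) in 2 Aire-/- and 2 Aire+/+ libraries, with points for libraries and bars for mean ± SD (n = 2). Bcat1, Igj and the mast cell and basophil sum lie lower in both Aire-/- libraries, while the B cell, macrophage and T cell receptor sums overlap. The mast cell and basophil sum rests on 2 to 13 counts per library.

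Of the dehydrogenase, the E1 alpha chain Bckdha and the E2 core Dbt were counted at low and even levels. Bckdha had counts of 27 and 30 in Aire-/-, against 40 and 35 in Aire+/+ libraries, or 26.5 ± 2.56 (Aire-/-) against 31.1 ± 1.68 CPM (Aire+/+; SD, n = 2 each). Both Aire-/- values lay just below both Aire+/+ values, with a fitted log2 fold change of -0.23 (approximate SE 0.37) that was smaller than its error. The gene B3gnt8 overlaps Bckdha on the opposite strand and had 2 to 11 counts per library. Dbt, which carries the lipoyl arm of the complex, had counts of 29 and 23 in Aire-/-, against 32 and 29 in Aire+/+ libraries. Its scaled values overlapped, at 24.1 ± 3.39 (Aire-/-) against 25.3 ± 0.74 CPM (Aire+/+), and its log2 fold change was -0.07 (approximate SE 0.39).

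Bckdhb, the E1 beta chain that pairs with Bckdha, was barely detected. Its counts were 8 and 1 in Aire-/-, against 6 and 6 in Aire+/+ libraries, too few for the filter, and the genotypes overlapped. Per kilobase it stood at 0.638 to 4.95 CPM over the 4 libraries, below the lowest Bckdha value of 13.0 CPM per kilobase.

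Dld, the E3 subunit that reoxidizes the lipoyl arm, is shared with the pyruvate and 2-oxoglutarate dehydrogenases and the glycine cleavage system. It had counts of 105 and 129 in Aire-/-, against 121 and 81 in Aire+/+ libraries, and its scaled values of 109 ± 18.2 (Aire-/-) against 83.5 ± 20.1 CPM (Aire+/+) overlapped (log2 fold change 0.38, approximate SE 0.26). Averaged over the 4 libraries Dld reached 37.8 ± 8.41 CPM per kilobase (SD, n = 4), above Bckdha in every library. Of its partners, Bckdha stood at 15.2 ± 1.70, the pyruvate dehydrogenase chain Pdha1 at 61.0 ± 12.5 and the 2-oxoglutarate dehydrogenase core Dlst at 38.2 ± 4.97 CPM per kilobase (SD, n = 4).

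Bckdk, the kinase that inactivates the dehydrogenase, was slightly higher in Aire-/- libraries. Its counts were 50 and 46 in Aire-/-, against 37 and 47 in Aire+/+ libraries, or 44.5 ± 1.62 (Aire-/-) against 35.1 ± 7.29 CPM (Aire+/+; SD, n = 2 each). The scaled values did not overlap, with 43.4 CPM as the lower Aire-/- and 40.2 CPM as the higher Aire+/+ value, and the log2 fold change of 0.35 (approximate SE 0.34) was close to its error. Ppm1k, the phosphatase that reverses this modification, had counts of 85 and 62 in Aire-/-, against 34 and 59 in Aire+/+ libraries. It was not called over all genes (log2 fold change 0.81, adjusted p = 0.89, edgeR).

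Among the transporters, Slc3a2 was abundant and its usual partner Slc7a5 nearly absent. Slc3a2, the heavy chain CD98 that brings several light chains to the membrane, had counts of 326 and 457 in Aire-/-, against 404 and 433 in Aire+/+ libraries. Its scaled level was 364 ± 94.2 CPM in Aire-/-, against 348 ± 31.1 CPM in Aire+/+ libraries, with overlap and a log2 fold change of 0.06 (approximate SE 0.21). Slc7a5, the light chain LAT1 that activated T cells need for leucine uptake, had counts of 1 and 5 in Aire-/-, against 8 and 0 in Aire+/+ libraries. The 0 in Aire+/+ replicate 2 allows up to 3 counts, or 2.57 CPM. A protein-coding locus on the opposite strand, Gm20388, spans Slc7a5.

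Per kilobase, there were 0.245 (95% exact interval 0.00619 to 1.38) and 0.875 (0.283 to 2.06) Slc7a5 for every 100 Slc3a2 in Aire-/- libraries. In Aire+/+ libraries there were 1.58 (0.679 to 3.15) and 0 (up to 0.684). The genotypes overlapped. Another light chain of Slc3a2, Slc7a6, an exchanger of cationic for neutral amino acids, was higher than Slc7a5 in every library. Over the 4 libraries Slc7a6 stood at 14.0 ± 6.66 and Slc7a5 at 0.86 ± 0.873 CPM per kilobase (SD, n = 4). The light chains Slc7a7 (2.52 ± 1.26), Slc7a8 (0.959 ± 0.431) and Slc7a11 (1.12 ± 0.528) overlapped with Slc7a5.

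Slc43a1, the transporter LAT3 that works without a heavy chain, was low in all libraries. Its counts were 13 and 7 in Aire-/-, against 4 and 3 in Aire+/+ libraries, so that it did not pass the filter and was not tested with the settings used. The genotypes did not overlap, at 11.9 and 6.60 CPM in Aire-/-, against 3.23 and 2.57 CPM in Aire+/+ libraries. The summed scaled counts gave a ratio of 3.19, with a 95% exact interval of 1.30 to 8.93 for counting error only. Its paralog Slc43a2, LAT4, was more abundant, at 9.70 ± 2.52 against 1.55 ± 1.08 CPM per kilobase over the 4 libraries (SD, n = 4).

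Ranked per kilobase over all 4 libraries, the order was Slc3a2, Dld, Bcat2, Bckdha, Bckdk, Dbt, Bcat1, Bckdhb, Slc43a1 and Slc7a5. Slc3a2 at 127 ± 20.6 CPM per kilobase (SD, n = 4) stood higher than 98.3% of the 19368 genes with a count and a transcript length, and Slc7a5 higher than 33.3% of them. Bcat2, at 19.9 ± 3.31 CPM per kilobase, stood higher than 85.4%. The library ranges of Slc3a2 and Dld, of Dld and Bcat2, and of Bckdk and Dbt did not overlap, and those of every other pair of neighbours did. Bcat1 had no single place in this order. It stood at 0.478 ± 0.346 CPM per kilobase in Aire-/- libraries, below the mean of Slc7a5, and at 5.89 ± 2.61 in Aire+/+ libraries, between Dbt and Bckdhb (SD, n = 2 each). Per kilobase of coding sequence, Bckdk moved above Bckdha and Bcat1 above Dbt. Bcat1, whose longest coding sequence has 1359 bases, then averaged 18.3 and Dbt 17.1 CPM per kilobase.

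**Figure D3:**
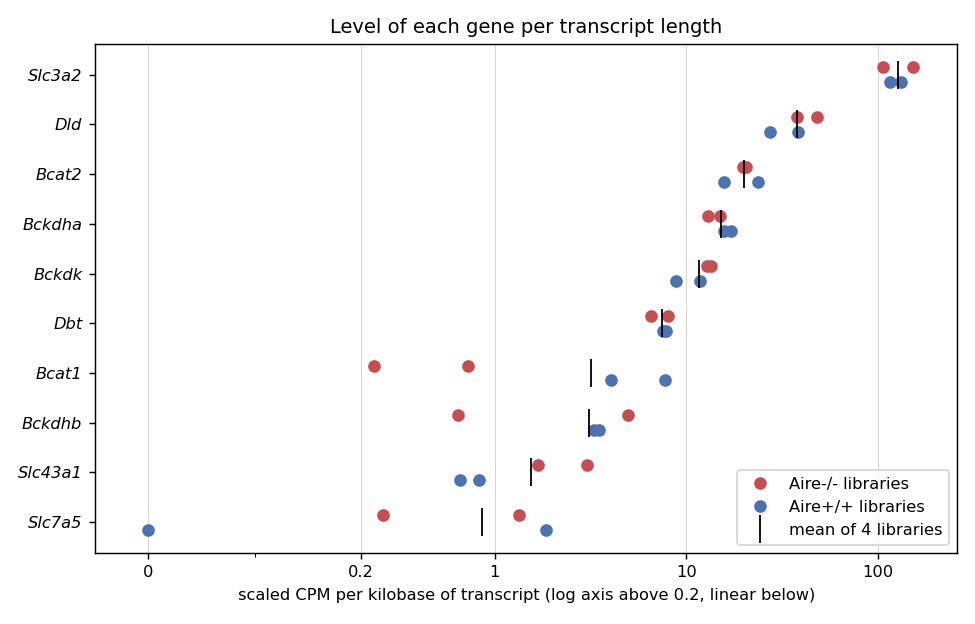
Scaled CPM per kilobase of longest transcript (horizontal axis, logarithmic above 0.2 and linear below) for the 10 genes from highest to lowest mean. Points are 2 Aire-/- and 2 Aire+/+ libraries, and vertical ticks are means of the 4. Slc3a2 is highest at 127 and Slc7a5 lowest at 0.86, and for Bcat1 the mean falls in the gap between the genotypes.

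Of the 10 genes, 7 passed the filter on low counts, and 0 of these were called by edgeR's quasi-likelihood test at an adjusted p under 0.05 over all genes. Across all 9783 genes tested 2 were called, both lower in Aire-/- libraries (Igj and Cpm, 0.0204% of genes in either direction). Before adjustment, a p under 0.05 was reached by 274 genes in the higher and 271 in the lower direction, and among the 7 by 0 and 1, the 1 being Bcat1. DESeq2's Wald test called 3 genes (0.0307%), of which Bcat1 was 1, and limma-voom called 1 (0.0102%) and none of the 7. Both Aire-/- values lay below both Aire+/+ values for 2 of the 7 (17.3% of all genes) and above them for 1 of the 7 (17.1%). The median log2 fold change was 0.03 for the 7 and 0.01 for all genes tested. Since these genes were chosen with this contrast in view, nothing is read from the counts.

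Further genes of the pathway were taken as 6 lists with 74 genes, of which 61 were tested. None was called in either direction by edgeR over all genes, with the smallest adjusted p at 0.83. Before adjustment, 4 of them reached a p under 0.05 in the higher and 2 in the lower direction, against 274 and 271 of all 9783 genes tested (edgeR). The share of all genes with a log2 fold change above 0 was not counted. The numbers above 0 given for each list below therefore stand only beside the median of all genes tested, 0.01. DESeq2's Wald test and limma-voom called none of the 61 either. On simulated libraries of this design with about 9406 genes tested, 76.4% of 4-fold and 20.4% of 2-fold changes were recovered. Each simulated set held 200 changed genes drawn from all levels of expression, whereas 2 genes were called here. With so few called, the adjusted threshold is stricter, so these rates may be too high for the genes here. Changes of either size could be missed, and Bcat1, at -3.60, was itself not called (adjusted p = 0.14, edgeR).

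The enzymes that oxidize the keto acids lay above 0 for 10 of 16 tested, with 0 called (median 0.33 on the log2 scale, where all genes had 0.01). Acat1, the thiolase at the end of the isoleucine branch, had counts of 185 and 233 in Aire-/-, against 146 and 158 in Aire+/+ libraries (log2 fold change 0.62, SE 0.23, adjusted p = 0.89, edgeR). Neither Echs1, the enoyl-CoA hydratase (-0.44), nor Mut, the methylmalonyl-CoA mutase that handles propionate (0.47), passed. Their adjusted p was 0.95 in each case. Both Aire-/- values of Acat1, Ppm1k and Mut lay above both Aire+/+ values, and those of Echs1 lay below. These 4 genes were named for having the smallest p of the list. Over the whole list, Aire-/- values lay above for 4 of 16 and below for 1 of 16, against 17.1% and 17.3% of all genes tested. Per kilobase Acat1 reached 47.1 ± 13.2 CPM over the 4 libraries, against 9.64 ± 4.00 for Ivd, the first leucine-specific dehydrogenase (SD, n = 4).

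Of 6 tested partners of Dld in other complexes 4 lay above 0 (median 0.13) and 0 were called. Pdha1 differed by 0.49 on that scale (adjusted p = 0.89), and both Aire-/- values were above both Aire+/+ values. Over these partners, Aire-/- values lay above for 1 of 6 and below for 0 of 6, against 17.1% and 17.3% of all genes tested. The pyruvate dehydrogenase core Dlat (-0.78), the binding protein Pdhx (0.30) and Dlst (0.18) overlapped between genotypes. Among other aminotransferases and glutamate enzymes 6 of 6 tested lay above 0, by small amounts (median 0.09), and 0 were called. They were led by Psat1, the phosphoserine aminotransferase (0.51), Glud1, the glutamate dehydrogenase (0.26), Got2, the mitochondrial aspartate aminotransferase (0.10), and Glul, the glutamine synthetase (0.08), with adjusted p from 0.94 to 0.99.

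Other amino acid carriers lay above 0 for 9 of 10 tested (median 0.26), with 0 called. Slc7a6 had counts of 95 and 59 in Aire-/-, against 44 and 38 in Aire+/+ libraries, or 71.2 ± 22.0 (Aire-/-) against 34.0 ± 2.15 CPM (Aire+/+; log2 fold change 1.06, SE 0.33, adjusted p = 0.83, edgeR). Slc43a2 (0.51) and Slc38a1, a glutamine carrier (0.25), also had both Aire-/- values above both Aire+/+ values. Slc7a11, the cystine exchanger, had both below (-0.97). Their adjusted p ran from 0.92 to 0.94, and none passed. The carriers named here were those with the smallest p of the list. Over the whole list, Aire-/- values lay above for 4 of 10 and below for 1 of 10, against 17.1% and 17.3% of all genes tested.

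Genes of leucine sensing and mTORC1 were split, with 8 of 17 above 0, a median of -0.07 and 0 called. Lamtor1, an anchor of mTORC1 at the lysosome, had counts of 49 and 54 in Aire-/-, against 93 and 92 in Aire+/+ libraries (log2 fold change -0.68, SE 0.28, adjusted p = 0.89, edgeR). Depdc5, part of the GATOR1 inhibitor, was at -0.54, the GATOR2 subunit Wdr24 at 0.95, and the kinase Mtor at 0.63, each with an adjusted p of 0.91. The genotypes did not overlap for any of these 4 genes, which were named for having the smallest p of the list. Over the whole list, Aire-/- values lay above for 3 of 17 and below for 5 of 17, against 17.1% and 17.3% of all genes tested.

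Of the MYC and amino acid response genes 2 of 6 tested lay above 0 (median -0.22) and 0 were called. Atf4, the transcription factor that amino acid shortage induces, had counts of 157 and 105 in Aire-/-, against 226 and 214 in Aire+/+ libraries, or 121 ± 31.4 (Aire-/-) against 183 ± 0.332 CPM (Aire+/+; log2 fold change -0.59, SE 0.24, adjusted p = 0.89, edgeR). Myc, a known activator of Bcat1, overlapped between genotypes at 101 ± 8.89 in Aire-/- and 91.9 ± 19.8 CPM in Aire+/+ libraries (0.13, adjusted p = 0.99). Hif1a, the oxygen-regulated factor (0.22), the stress factor Ddit3 (-0.34) and the amino acid sensing kinase Eif2ak4 (-0.36) had adjusted p from 0.97 to 0.98. Trib3, Chac1, Ddit4 and Nupr1, targets of stress responses, had at most 8 counts in any library and were not tested.

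**Figure D4:**
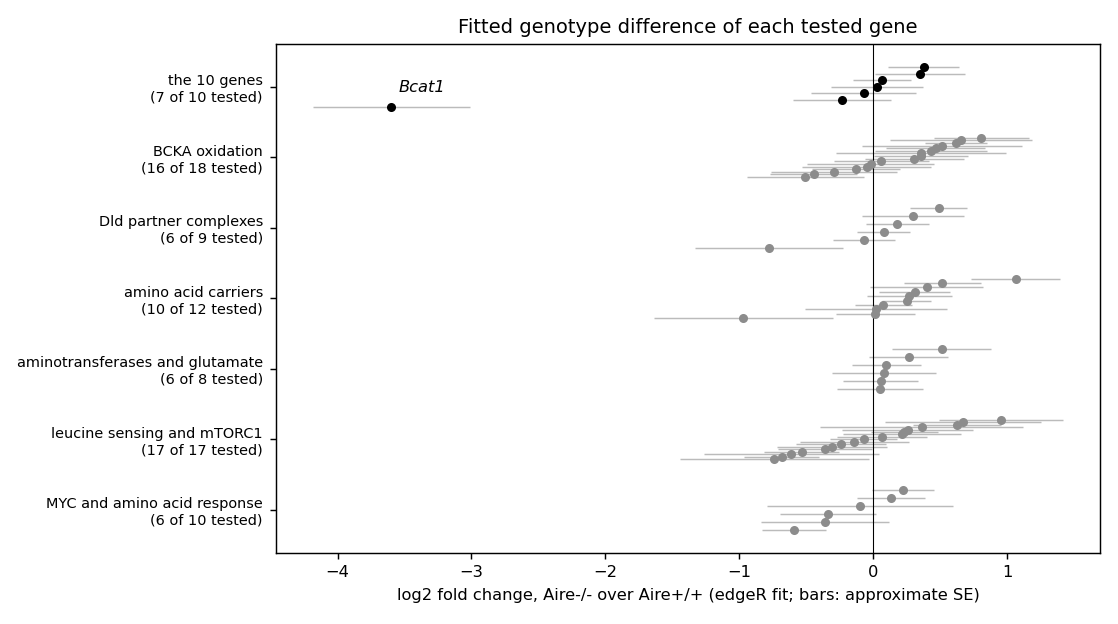
Fitted log2 fold change, Aire-/- over Aire+/+ (horizontal axis), of every tested gene in the 10-gene set and 6 pathway lists, with approximate SE as bars. Bcat1, at -3.60, lies apart from the other 67 genes shown, which run from -0.97 to 1.06.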

How the data were processed

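Raw read counts, whole numbers for each gene symbol, were deposited by the authors as a single table whose header names the 4 libraries. TopHat2 2.0.10, Cufflinks 2.2.1 and mm10 are named without role, per the submitters' processing notes. For the counting method, annotation, strand and duplicates, the entry is: not given in the sources used here. Original Smart-Seq2 has no molecular identifiers, so reads may repeat a molecule, and intervals and limits are of counting error alone.

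Genotypes came from the labels and gave 2 groups of 2. Counts were tested with edgeR 4.0.16 (R 4.3.3) by TMM, filterByExpr (minimum count 10, total 15) and the quasi-likelihood test, with Benjamini-Hochberg adjustment over all 9783 genes tested of 22865. SEs are approximate, being the absolute log2 fold change over the square root of F. Simulated counts (10 sets, 200 changed genes in each) were used to test the steps. Libraries of the same genotype were not copies of each other, the chi-square of their counts divided by its degrees of freedom being 4.10 for the Aire-/- and 4.00 for the Aire+/+ pair. Lengths and gene spans came from GENCODE M21 (GRCm38, the assembly mm10 names), matching 21591 symbols, and promoter sequences from RefSeq GRCm38.p6, without chromosome 18. Exact intervals are Clopper-Pearson at 95%.

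Named are the 10 genes, up to 4 tested genes with the smallest p in each pathway list, Myc, Atf4 and the genes called over the whole table. Others, such as Ivd, Slc7a7, Slc7a8 and the untested stress genes, were named after their values were seen. One gene of a cell type marker list is not reported here and was left out of that list's sum. The genes and lists were chosen with earlier results of these data known. Alternatives were DESeq2 1.42.0 size factors and its Wald test, limma-voom 3.58.1, no filter, 10 CPM in 2 libraries, Rn45s left out, a block for the replicate number, single libraries left out and, for levels, coding length. The replicate numbers were not taken to pair the libraries, since no label says what they share.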

Additional observations from a re-analysis of the deposited data

How the results depend on the processing

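With 2 libraries per genotype the counts of called genes moved with the processing. Genes called higher in Aire-/- libraries numbered 0, and 21 without a filter on low counts. Genes called lower numbered 2, but 1 by limma-voom and 26 without a filter. Leaving out Aire-/- replicate 1 gave 13 higher and 9 lower, leaving out Aire-/- replicate 2 gave 5 and 12, leaving out Aire+/+ replicate 1 gave 6 and 6, and leaving out Aire+/+ replicate 2 gave 21 and 42. DESeq2's Wald test called 3 lower. With the replicate number as a block, 2 were called higher and 4 lower, among them Bcat1. The deviations of same-numbered libraries from their genotype means correlated at -0.08 across 9783 genes. No gene of the pathway lists was called under any of the 11 alternatives.

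Bcat1 kept its direction in all 11, with log2 fold changes from -4.59 to -3.00. In the 7 alternatives that kept all 4 libraries, its adjusted p ran from 8.6e-07 (edgeR without a filter) to 0.91 (limma-voom). It was under 0.05 in 3 of these 7, and 0.14 with the settings used (edgeR). Bcat1 was chosen with this contrast in view, so these values show the effect of processing and are no support. When single libraries were left out, the remaining library of that genotype was taken to vary as much as the other genotype's. Only log2 fold changes are therefore given here for those fits. Leaving out single libraries turned the sign of Slc3a2 (-0.23 to 0.31), Bcat2 (-0.24 to 0.35) and Dbt (-0.22 to 0.06), while Bckdha (-0.34 to -0.13), Dld (0.15 to 0.64) and Bckdk (0.14 to 0.57) kept theirs. Values for Bckdhb, Slc7a5 and Slc43a1 rest on at most 13 counts per library, at which a difference between genotypes could be missed. Dropping the filter let edgeR test them, and none of them was called. The estimate for Slc43a1 was then 1.63 on the log2 scale (SE 0.88), with 0.95 as its adjusted p.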
